A study of Homo sapiens with 12 samples.

Results

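The genes described here are the ligands, receptors, binding proteins, SMADs and ID genes of the TGF-beta and BMP pathways. They were chosen by symbol alone, as every row of the count table named for a BMP, GDF (GDF15 apart), TGF-beta, activin, nodal or lefty ligand, a receptor, a SMAD, a latent TGF-beta binding protein, one of the extracellular antagonists or an ID gene. Of 71 such symbols grouped by role, 53 had a row among the 14438 rows of the table, and 52 of them were tested.

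The samples were 12 RNA-Seq libraries of HEK293T cells, which derive from human embryonic kidney, with 3 replicates of each of 4 lines. Every line had been infected with lentivirus to express a form of EZH2, the enzyme of the polycomb complex PRC2 that methylates lysine 27 of histone H3. The EZH2 WT line carried the wild-type enzyme, the EZH2 Y641F and EZH2 A677G lines carried gain-of-function (GOF) mutants, and the EZH2 H689A/F667I line carried a loss-of-function (LOF) double mutant. The lines are named WT, Y641F, A677G and H689A/F667I below. The parental cells keep their own EZH2 gene, so each mutant was present together with the endogenous enzyme, and the methods describe the selected lines as monoclonal. A difference between lines therefore cannot be told apart from a difference between clones. The labels number the replicates without saying whether they were separate cultures, and the p-values measure the spread between these samples only. No untransduced or empty-vector RNA samples were analysed here.

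Ligands of this family bind a pair of type I and type II receptors, and the type I receptor then phosphorylates receptor SMADs, which enter the nucleus with SMAD4. SMAD2 and SMAD3 carry the signal of TGF-beta and activins, while SMAD1, SMAD5 and SMAD9 carry that of BMPs. Noggin, chordin and related secreted proteins hold BMPs away from their receptors, latent TGF-beta binding proteins store TGF-beta in the matrix, and SMAD6, SMAD7 and BAMBI dampen the signal inside or at the cell. The ID genes are direct BMP targets that encode helix-loop-helix proteins without a DNA-binding region. Many developmental ligands and antagonists of the family are known targets of PRC2 in embryonic cells.

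Total counts per sample lay between 32137700 and 44562413. EZH2 itself, whose row holds endogenous and transgene reads together, measured 157, 163 and 154 CPM (counts scaled to library size, here always TMM-normalized) in WT replicates 1 to 3. It measured 228, 209 and 217 CPM in Y641F, 174, 165 and 182 CPM in A677G, and 208, 210 and 206 CPM in H689A/F667I. The mutant lines did not overlap WT, with log2 fold changes of 0.46, 0.13 and 0.40 (edgeR adjusted p = 1.57e-10, 0.0294 and 1.15e-07). The A677G call for EZH2 was lost without WT replicate 1 or 3 or A677G replicate 1 or 3 (adjusted p = 0.102 to 0.233). The EZH2 level thus differed between the lines beside the mutation, and its part in the results below was not tested. The replicates of Y641F differed more from each other than those of the other lines, with a chi-square per degree of freedom of 10.4 to 14.9 for their pairs against 3.33 to 7.13. All 8 embryonic kidney markers examined were in the table, with summed levels of 422 to 439 CPM, most of it from VIM and CDH2 (means of 257.9 and 123.8 CPM), which many cell types express. The kidney transcription factors EYA1 and LHX1 were at 2.87 to 5.58 CPM, and PAX2 was at 0.311 to 0.595 CPM in WT, Y641F and H689A/F667I and listed at 0 in A677G. Against WT, CDH2 was higher in both GOF lines (log2 fold change 0.15 and 0.18, edgeR adjusted p = 0.0181 and 0.00426), VIM was lower in Y641F (-0.12, 0.0187), LHX1 was lower in A677G (-0.53, 0.0263) and the fibroblast marker LUM was higher in Y641F (0.90, 0.0218). LUM was at 0.72 in H689A/F667I and 0.02 in A677G, neither of them called (edgeR adjusted p = 0.383 and 0.983). Of the B cell, fibroblast and endothelial markers, 1 of 4, 3 of 5 and 1 of 4 had rows, with summed levels of 0.514 to 1.3, 7.18 to 13.4 and 0.105 to 0.784 CPM.

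Promoter sequences are shown for 4 members whose calls recur below, because CpG-rich promoters are the usual sites of PRC2 in mammalian cells. Each is the 250 bases before the RefSeq gene start, on GRCh38.p14, written 5′ to 3′ on the strand of the gene, with every CpG in capitals. ACVR1C (chr2:157628865-157629114, minus strand) and BMP6 (chr6:7725849-7726098, plus strand) were lower in a GOF line than in WT. ID4 (chr6:19837120-19837369, plus strand) and LTBP1 (chr2:32946703-32946952, plus strand) were higher.
ACVR1C: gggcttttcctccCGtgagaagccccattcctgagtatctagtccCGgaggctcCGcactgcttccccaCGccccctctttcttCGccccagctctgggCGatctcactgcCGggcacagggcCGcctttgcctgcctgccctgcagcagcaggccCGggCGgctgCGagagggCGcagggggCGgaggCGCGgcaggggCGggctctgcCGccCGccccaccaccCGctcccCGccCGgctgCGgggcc
BMP6: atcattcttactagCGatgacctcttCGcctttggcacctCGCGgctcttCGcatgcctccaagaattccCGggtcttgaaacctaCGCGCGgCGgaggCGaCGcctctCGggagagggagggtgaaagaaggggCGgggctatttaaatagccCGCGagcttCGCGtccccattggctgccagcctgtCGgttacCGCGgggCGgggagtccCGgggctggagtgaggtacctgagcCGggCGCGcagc
ID4: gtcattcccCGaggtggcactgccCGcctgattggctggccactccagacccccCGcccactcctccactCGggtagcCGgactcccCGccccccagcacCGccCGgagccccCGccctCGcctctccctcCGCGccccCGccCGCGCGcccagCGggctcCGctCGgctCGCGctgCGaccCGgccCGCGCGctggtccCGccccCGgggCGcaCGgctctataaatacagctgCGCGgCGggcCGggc
LTBP1: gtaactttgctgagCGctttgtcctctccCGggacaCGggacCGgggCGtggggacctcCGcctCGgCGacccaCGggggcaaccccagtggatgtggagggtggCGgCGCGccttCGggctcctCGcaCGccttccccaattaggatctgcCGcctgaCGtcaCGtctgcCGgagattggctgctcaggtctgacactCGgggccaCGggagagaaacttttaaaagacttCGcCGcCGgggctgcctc

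These promoters hold 22, 26, 34 and 24 CpGs in that order. A RefSeq promoter was matched for 45 of the 53 members, and ACVRL1, BMP1, BMP2, BMP3, BMP7, GDF6 and NOG were among those without an entry. The median was 25 CpGs over the 45 members, against 21 over 11029 promoters of genes tested and 11 over all 27305 promoters. Of the 8 members lower in a GOF line than in WT, BMP3, GDF6 and NOG had no entry. The 5 matched ones had a median of 24 CpGs and the 4 higher had 29, while the other 36 had 25. The matched members that fell were thus close to the other members in this count. The motif GGCGCC, which matches SMAD1 and SMAD5 binding sequences and reads the same on both strands, was found in 16 of 45 member promoters (35.6%) against 26.5% of promoters of genes tested and 16.1% of all. The palindrome GTCTAGAC, a SMAD3 and SMAD4 binding sequence, was found in 1 member promoter, that of SMAD6 (2.22%), against 0.145% and 0.176%. A match is a description of the letters in this window and not a binding site.

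Each mutant line was compared with WT to see which pathway genes moved with the mutation. In Y641F, 7 of the 52 members tested were lower (13.5%) and 3 were higher (5.77%), where 5.59% and 2.09% of all 14263 genes tested were lower and higher (edgeR quasi-likelihood test, Benjamini-Hochberg adjusted p under 0.05). The lower count went to 3 without WT replicate 1 or 2 and to 4 without Y641F replicate 3. In A677G, 4 members were lower (7.69%) and 3 were higher (5.77%), where the shares of all genes were 6.48% and 2.07%. The lower share in A677G was thus near that of all genes, and its count went to 2 without WT replicate 1 or 2 or A677G replicate 1. The H689A/F667I line gave 0 calls among the members by edgeR or DESeq2, with 5 members at an unadjusted p under 0.05, 1 lower and 4 higher. Only 0.301% of all genes were called in that comparison in either direction. The median log2 fold change of the members was -0.02 in Y641F, -0.04 in A677G and 0.04 in H689A/F667I, where the medians over all genes were within 0.01 of 0. Replicates of mutant and WT did not overlap for 21 members in Y641F, 21 in A677G and 8 in H689A/F667I, or 40.4%, 40.4% and 15.4%. The same held for 21.0%, 27.2% and 15.0% of all genes. These 3 comparisons share the WT samples.

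**Figure D1:**
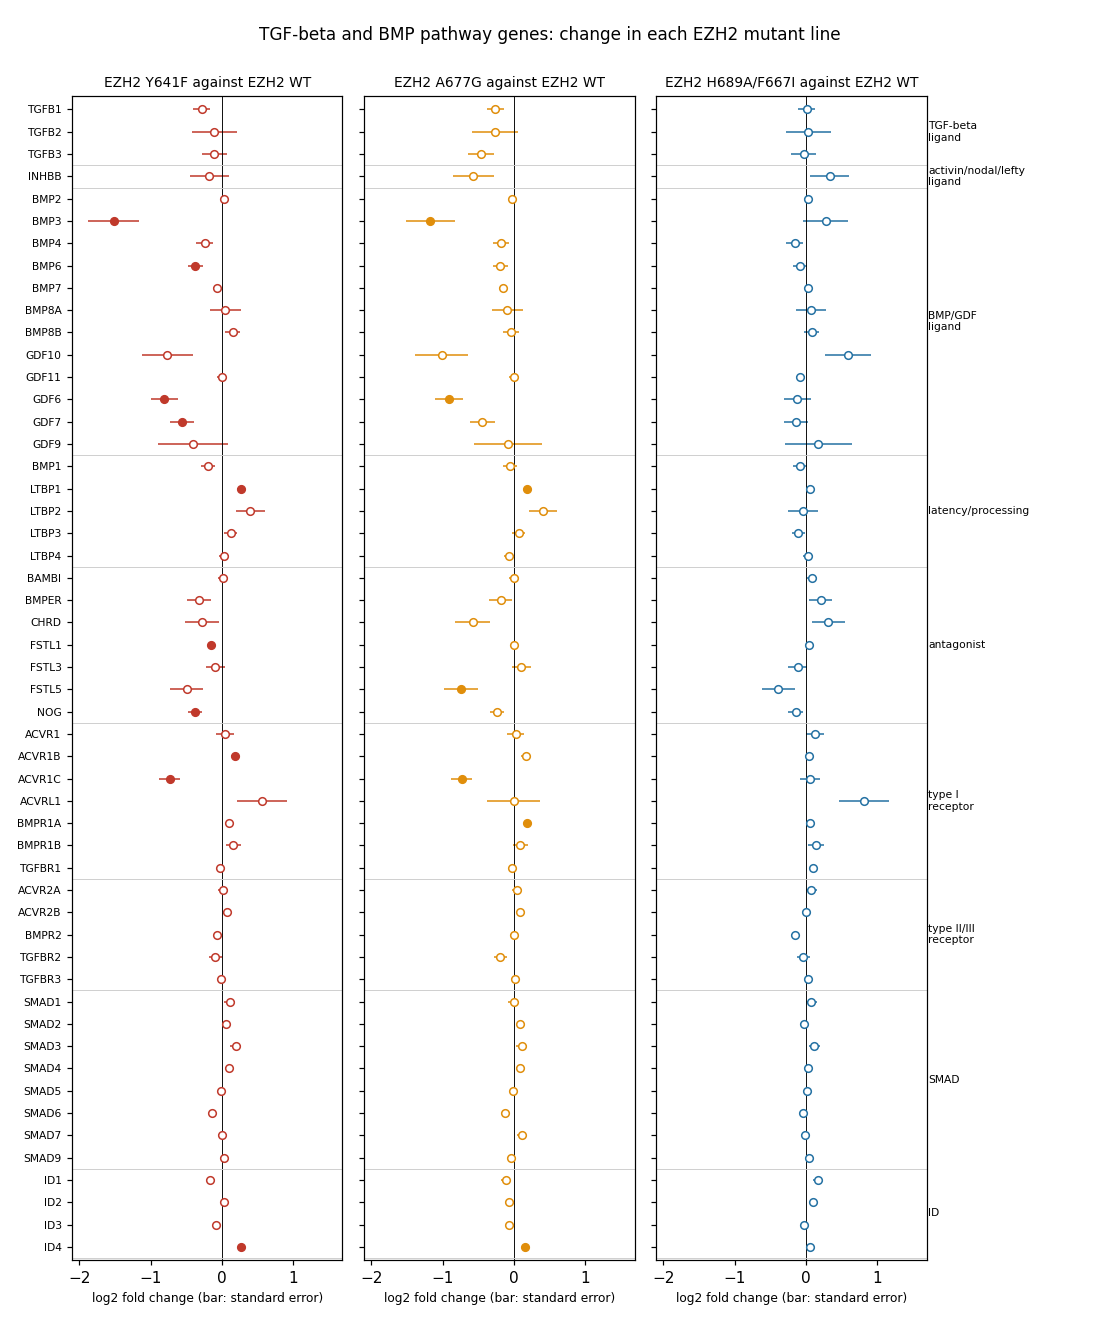
Log2 fold change against WT (x axis) of the 52 tested TGF-beta and BMP pathway genes (y axis, by role) in the Y641F, A677G and H689A/F667I lines. Bars are standard errors of the fit and filled points have an edgeR adjusted p under 0.05: 10 in Y641F, 7 in A677G and 0 in H689A/F667I, with BMP3 the lowest called value in both GOF lines.

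Among ligands, the BMP and GDF group held most of the calls. Of 12 tested, 4 fell in Y641F and 2 in A677G, and 0 rose in either, where 5.59% and 6.48% of all genes were lower. BMP3, a BMP that opposes the bone-forming members of its family (ENSG00000152785.8, chromosome 4, 81030708 to 81057627), measured 1.7, 1.22 and 0.784 CPM in WT and 1.38, 1.68 and 1.46 CPM in H689A/F667I. Its level was 0.713, 0.236 and 0.331 CPM in Y641F and 0.494, 0.713 and 0.439 CPM in A677G. All 6 GOF samples lay below all 6 others. The log2 fold change against WT was -1.52 ± 0.359 (SE) in Y641F and -1.17 ± 0.347 in A677G (edgeR adjusted p = 0.0046 and 0.0256, n = 3 per line). BMP3 rests on few reads, 9 to 66 counts per sample. The call in Y641F was lost without WT replicate 1 (adjusted p = 0.072), and that in A677G without WT replicate 1 or 2 or A677G replicate 1 or 3 (0.0716 to 0.225).

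GDF6, a BMP-type ligand of joint and eye development (ENSG00000156466.11, chromosome 8, 96142333 to 96160806), fell in both GOF lines. Its level was 3.06, 3.21 and 2.99 CPM in WT and 2.87, 2.55 and 3.13 CPM in H689A/F667I, against 1.81, 1.79 and 1.7 CPM in Y641F and 1.48, 1.47 and 1.97 CPM in A677G. The GOF samples again lay below all the others. The log2 fold changes were -0.81 ± 0.194 and -0.92 ± 0.196 (SE, edgeR adjusted p = 0.00559 and 0.00144), and both calls were kept whichever of the 12 samples was left out. GDF7, a ligand known from the dorsal neural tube, measured 4.55, 4.17 and 3.68 CPM in WT, 2.88, 3.02 and 2.55 CPM in Y641F, 3.61, 2.36 and 3.15 CPM in A677G and 4.19, 3.95 and 3.1 CPM in H689A/F667I. It fell in Y641F (log2 fold change -0.56, edgeR adjusted p = 0.041) and was -0.44 in A677G, where the adjusted p was 0.117. The GDF7 call was lost with only the 2 lines in the fit and in 6 of the 12 fits without a sample, those without WT replicate 1 or 2, any Y641F replicate or H689A/F667I replicate 2 (0.0514 to 0.187). The GOF mean of GDF7 did not differ from H689A/F667I by the test (log2 difference -0.36, edgeR adjusted p = 0.121).

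BMP6, a ligand that controls hepcidin and iron in the liver (ENSG00000153162.9, chromosome 6, 7726099 to 7881728), measured 11, 11.2 and 9.74 CPM in WT and 8.92, 7.41 and 8.37 CPM in Y641F. Its log2 fold change there was -0.37 ± 0.1 (SE, edgeR adjusted p = 0.0155), and the call was lost without WT replicate 1 or 2 or Y641F replicate 2 (0.0733 to 0.0965). In A677G it measured 9.2, 9.22 and 9.68 CPM, below every WT replicate, with a log2 fold change of -0.19 (adjusted p = 0.301). BMP6 in H689A/F667I was at 10.4, 10.1 and 9.87 CPM. The GOF mean did not differ from that line by the test (log2 difference -0.20, edgeR adjusted p = 0.133). GDF10, close to BMP3 in sequence, had 8 to 46 counts per sample and did not pass the quasi-likelihood test against WT (edgeR adjusted p = 0.234 in Y641F and 0.0894 in A677G), although edgeR's exact test called it in A677G (adjusted p = 0.0378). Its values were 0.649, 0.828 and 0.603 CPM in WT, 0.38, 0.42 and 0.426 CPM in Y641F, 0.449, 0.197 and 0.384 CPM in A677G and 0.92, 1.17 and 1.05 CPM in H689A/F667I. The GOF samples were thus the lowest and the LOF samples the highest.

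The other ligands did not pass the test in any line against WT. BMP7, a kidney and skeletal BMP with the highest mean CPM among BMP and GDF ligands, measured 56.9, 60.6 and 52.4 CPM in WT, 54.4, 55.8 and 52.5 CPM in Y641F, 51.3, 53 and 49 CPM in A677G and 60.5, 57 and 56.7 CPM in H689A/F667I. Its log2 fold change of -0.15 in A677G had an adjusted p of 0.0678. TGFB1, the most abundant of the 3 TGF-beta ligands, had means of 8.1 ± 0.853 CPM in WT, 6.66 ± 0.162 in Y641F, 6.78 ± 0.711 in A677G and 8.22 ± 1.14 in H689A/F667I (SD, n = 3). Its log2 fold changes were -0.28 and -0.26 in the GOF lines (edgeR adjusted p = 0.17 and 0.204). INHBB, the beta-B subunit of activin and inhibin and the 1 member of 7 activin, nodal and lefty symbols with a row, had overlapping replicates in every comparison with WT. BMP8A and BMP8B are near-identical copies whose reads the counting may have split between them, so their values are uncertain. Neither was called.

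Of the extracellular antagonists and binding proteins, 2 of 7 tested fell in Y641F, 1 fell in A677G and 0 rose, where 5.59% and 6.48% of all genes were lower. These are calls of single genes, each lost in some of the fits without a sample. NOG, which encodes noggin (ENSG00000183691.6, chromosome 17, 56593699 to 56595611), measured 13.1, 14.9 and 13.8 CPM in WT, 12.2, 10.8 and 9.22 CPM in Y641F, 13, 11 and 11.7 CPM in A677G and 13.9, 12.5 and 11.4 CPM in H689A/F667I. The Y641F replicates lay below those of WT, with a log2 fold change of -0.38 ± 0.101 (SE, edgeR adjusted p = 0.0136). The call was lost without WT replicate 2 or Y641F replicate 3 (0.106 and 0.131). In A677G the log2 fold change was -0.23 (adjusted p = 0.173). The GOF mean of NOG did not differ from H689A/F667I by the test (log2 difference -0.16, edgeR adjusted p = 0.265).

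FSTL1, a secreted glycoprotein of the follistatin family and the antagonist-group member with the highest mean CPM, measured 115, 115 and 113 CPM in WT and 110, 96.3 and 103 CPM in Y641F. The change was small, -0.15 ± 0.0435 on the log2 scale (SE, edgeR adjusted p = 0.025), and its call was lost with library totals in place of TMM factors, with only the 2 lines in the fit, and without WT replicate 1 or 2 or Y641F replicate 2 or 3 (0.0607 to 0.172 for the samples left out). FSTL5, another follistatin-like gene, measured 2.46, 2.38 and 3.17 CPM in WT against 1.62, 1.23 and 1.95 CPM in A677G. It fell by 0.74 ± 0.234 on the log2 scale (SE, edgeR adjusted p = 0.0397), a call lost without any 1 of the WT replicates or A677G replicate 1 or 2 (0.0623 to 0.217). In Y641F it measured 2.4, 1.44 and 1.82 CPM, which overlaps WT. FSTL5 in H689A/F667I was at 1.6, 1.88 and 2.67 CPM, also overlapping WT (log2 fold change -0.39, edgeR adjusted p = 0.702). The GOF mean did not differ from H689A/F667I by the test (log2 difference -0.23, edgeR adjusted p = 0.552), so the fall is not shown to be particular to a GOF line.

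**Figure D2:**
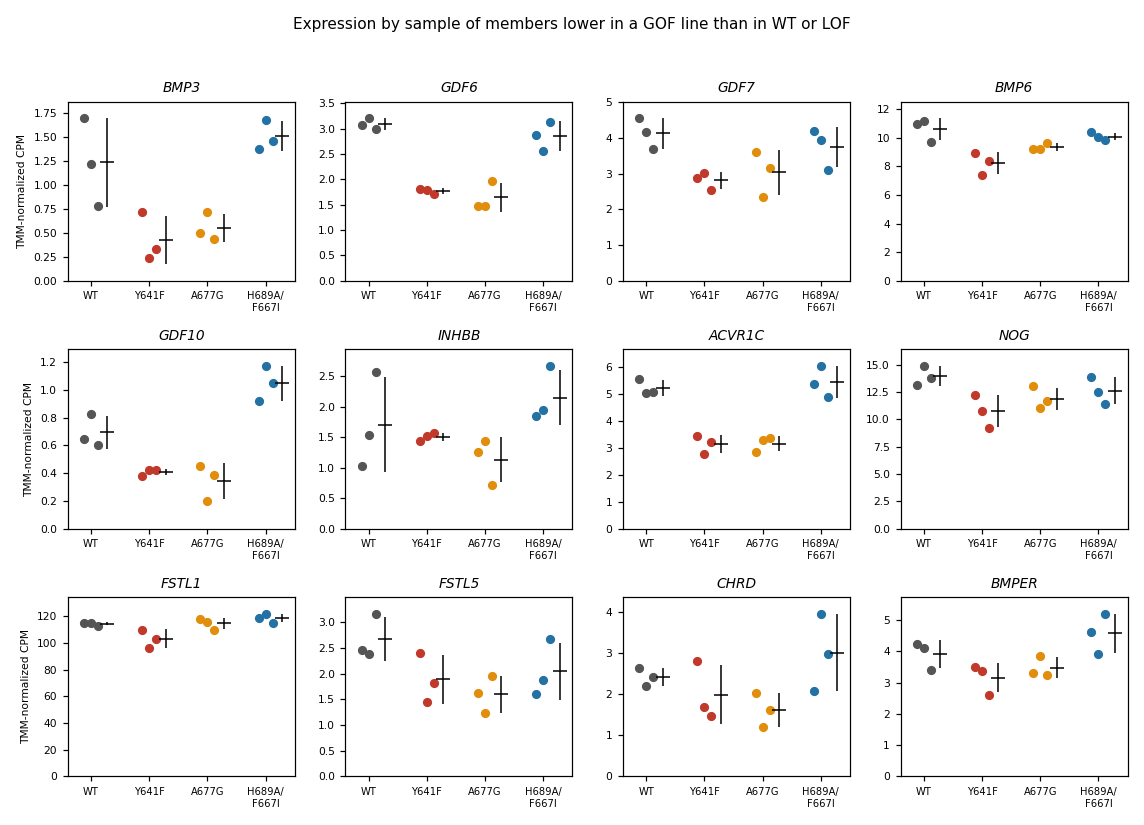
TMM-normalized CPM (y axis, from 0, own scale per gene) of 12 members in each of the 12 samples, by line (x axis), with mean and SD (n = 3) in black beside the points. The GOF samples of BMP3, GDF6, GDF10 and ACVR1C lie below all WT and H689A/F667I samples, whereas those of INHBB, CHRD and FSTL5 overlap WT or H689A/F667I.

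The type I receptors held members that moved either way. ACVR1C, also called ALK7, a receptor for nodal and some GDFs (ENSG00000123612.16, chromosome 2, 157526767 to 157628864), measured 5.55, 5.02 and 5.07 CPM in WT and 5.38, 6.04 and 4.87 CPM in H689A/F667I. The GOF lines gave 3.42, 2.78 and 3.22 CPM in Y641F and 2.85, 3.27 and 3.35 CPM in A677G. No GOF sample reached any of the others. The log2 fold change was -0.73 ± 0.148 (SE) in both GOF lines (edgeR adjusted p = 8.89e-04 and 7.85e-04), and the calls were kept without any 1 of the 12 samples and under every other setting tried. Its promoter is the first of those printed above.

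BMPR1A, a type I BMP receptor (ENSG00000107779.15, chromosome 10, 86756596 to 86932825), measured 61.6, 60.3 and 62.8 CPM in WT, 63.8, 69.4 and 65.5 CPM in Y641F, 67.5, 71.1 and 72.5 CPM in A677G and 64.1, 64.5 and 63.7 CPM in H689A/F667I. It rose in A677G (log2 fold change 0.19 ± 0.0456, SE, edgeR adjusted p = 0.004), a call kept without any 1 of the 12 samples. In Y641F the value was 0.11 (adjusted p = 0.177). The GOF mean of BMPR1A did not differ from H689A/F667I by the test (log2 difference 0.09, edgeR adjusted p = 0.15). ACVR1B, the activin receptor ALK4, measured 36.1, 35.7 and 31.9 CPM in WT, 41.3, 37 and 39.8 CPM in Y641F and 36.2, 39.9 and 40.9 CPM in A677G. Its rise in Y641F stood at the threshold (log2 fold change 0.19, edgeR adjusted p = 0.0466), was lost in 9 of the 12 fits without a sample, all but those without Y641F replicate 2 or A677G replicate 1 or 3 (0.0518 to 0.252), and was lost with only the 2 lines in the fit and with at least 10 counts required in every sample. In A677G the log2 fold change was 0.17 (adjusted p = 0.0726). ACVR1B in H689A/F667I was at 36.4, 35 and 35.8 CPM. The GOF mean did not differ from that line by the test (log2 difference 0.13, edgeR adjusted p = 0.0957). TGFBR1, the type I TGF-beta receptor, measured 108, 115 and 119 CPM in WT, 108, 112 and 117 CPM in Y641F, 114, 114 and 110 CPM in A677G and 127, 126 and 115 CPM in H689A/F667I.

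The type II and III receptors gave 0 calls of 5 in any comparison by edgeR. Their log2 fold changes against WT ran from -0.19 to 0.09 over the 3 mutant lines. ACVR2B, an activin receptor with the highest mean CPM of the group, was at 174 ± 3.71, 183 ± 3.79, 184 ± 5.14 and 174 ± 2.28 CPM in WT, Y641F, A677G and H689A/F667I (SD, n = 3). TGFBR2, the type II TGF-beta receptor, was at 13.9 ± 0.388, 13.1 ± 1.28, 12.2 ± 0.512 and 13.6 ± 1.39 CPM. BMPR2, which partners the BMP type I receptors, measured 71.8, 69.2 and 72 CPM in WT and 59.6, 62.8 and 68.8 CPM in H689A/F667I, lower without overlap but with an adjusted p of 0.32 (log2 fold change -0.16).

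No SMAD passed the test in any of the 5 comparisons, which covers 8 genes. Their log2 fold changes ran from -0.13 to 0.20 in Y641F, from -0.11 to 0.12 in A677G and from -0.03 to 0.12 in H689A/F667I. SMAD5, a BMP receptor SMAD with the highest CPM of the group, was at 190 ± 6.81 CPM in WT, 188 ± 5.09 in Y641F, 190 ± 9.78 in A677G and 192 ± 3.8 in H689A/F667I (SD, n = 3). SMAD3, the TGF-beta receptor SMAD, had the highest log2 fold change of the group in Y641F, 0.20 ± 0.0722 (SE, edgeR adjusted p = 0.0961), at 25.6 ± 1.48 against 22.3 ± 0.882 CPM. SMAD6, an inhibitory SMAD, had the lowest log2 fold change there, -0.13 (adjusted p = 0.133), at 61.6 ± 5.01 against 67.4 ± 3.6 CPM. SMAD1 was at 16.5, 17.9, 16.5 and 17.4 CPM in WT, Y641F, A677G and H689A/F667I, SMAD2 at 77.2, 80.5, 82.4 and 75.6, SMAD4 at 76.7, 82.2, 81.5 and 78.2, and SMAD7, the other inhibitory SMAD, at 32.1, 32.4, 34.8 and 31.9. The standard errors of these log2 fold changes are 0.0396 to 0.0777. Shifts larger than 1 standard error could also be missed, since SMAD3 in Y641F was not called at 0.20 ± 0.0722.

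Rises in both GOF lines were called for 1 latent TGF-beta binding protein and 1 ID gene. LTBP1, which tethers latent TGF-beta to the matrix (ENSG00000049323.16, chromosome 2, 32946953 to 33399509), measured 50.2, 46.9 and 48.8 CPM in WT and 49.6, 51.5 and 51.2 CPM in H689A/F667I. The GOF lines were higher, at 60.7, 58.9 and 56.5 CPM in Y641F and 54.4, 55.2 and 57.4 CPM in A677G, with no overlap. The log2 fold changes were 0.27 ± 0.0482 and 0.19 ± 0.0483 (SE, edgeR adjusted p = 1.49e-04 and 0.00665). The Y641F call was kept without any 1 of the 12 samples, and the A677G call was lost without WT replicate 2 or A677G replicate 3 (0.0547 and 0.0657). The other 4 members of the latency and processing group were not called.

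ID4 (ENSG00000172201.12, chromosome 6, 19837370 to 19842197) measured 121, 124 and 122 CPM in WT, 152, 151 and 142 CPM in Y641F, 143, 132 and 133 CPM in A677G and 127, 128 and 128 CPM in H689A/F667I. All GOF samples were above all the others. The log2 fold changes were 0.28 ± 0.0394 and 0.15 ± 0.0395 (SE, edgeR adjusted p = 4.28e-06 and 0.0081), of which the second was lost without A677G replicate 1 (0.117). ID1 went the other way, at 29.3, 30.9 and 29 CPM in WT, 25.6, 28.6 and 25.8 CPM in Y641F and 28.5, 26.8 and 27.4 CPM in A677G. Its GOF samples lay below those of WT, with log2 fold changes of -0.16 and -0.11 that did not pass the test (edgeR adjusted p = 0.138 and 0.35). In H689A/F667I it was above WT in all replicates, at 34.4, 31.3 and 34.8 CPM (log2 fold change 0.17, adjusted p = 0.383). ID2 measured 113, 114 and 115 CPM in WT and 128, 118 and 119 CPM in H689A/F667I, with 115, 118 and 116 CPM in Y641F and 112, 105 and 110 CPM in A677G. The 4 ID genes thus did not move together.

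**Figure D3:**
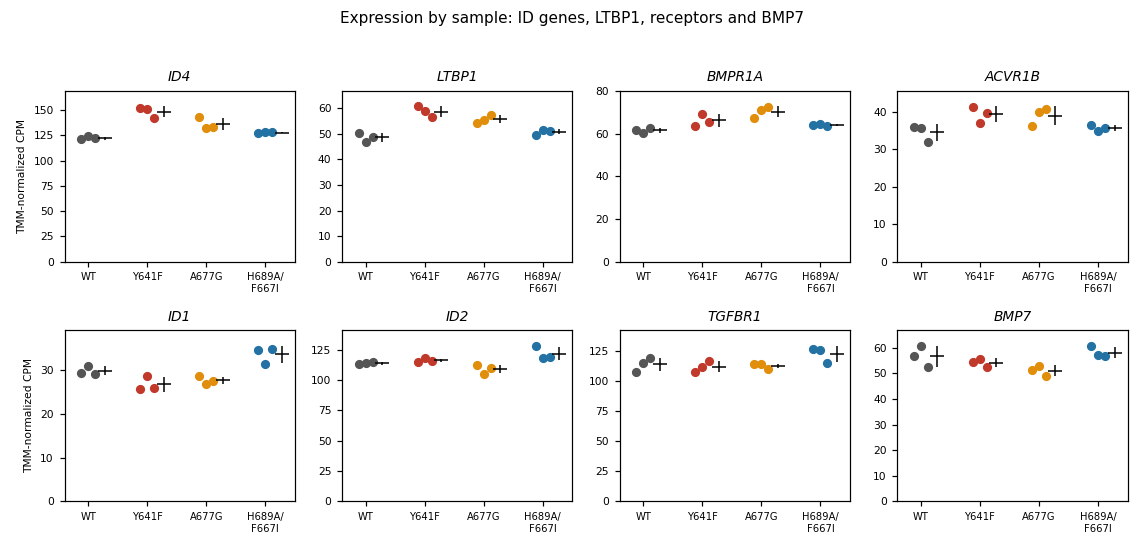
TMM-normalized CPM (y axis, from 0, own scale per gene) of ID4, LTBP1, BMPR1A, ACVR1B, ID1, ID2, TGFBR1 and BMP7 in each of the 12 samples, by line (x axis), with mean and SD (n = 3) in black. ID4 and LTBP1 are higher in every GOF sample than in any other, while ID1 is lowest in the GOF lines and highest in H689A/F667I.

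The GOF lines were set against each other and, as a mean, against the LOF line. Between Y641F and A677G, 0 of the 52 members were called by edgeR, by its exact test or by DESeq2, with 3 members at an unadjusted p under 0.05, and 0.0841% of all genes were called in either direction. For members called in only 1 GOF line, the difference between the lines was -0.18 for BMP6, -0.15 for NOG, -0.11 for GDF7, -0.15 for FSTL1, 0.25 for FSTL5, -0.09 for BMPR1A and 0.02 for ACVR1B (log2, Y641F minus A677G). None of these passed the test (edgeR adjusted p = 0.303 to 0.971), which does not show that the lines act alike. FSTL1 was called when Y641F replicate 1 was left out.

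Against H689A/F667I, 12 members were lower in the mean of the GOF lines (23.1%) and 2 were higher (3.85%), where 8.75% of all genes were lower and 3.81% higher. This contrast sets the mean of the GOF lines against the LOF line. A member can be lower in it because the LOF line lay above WT. Against WT, 34 of the 52 members had a log2 fold change above 0 in H689A/F667I and 18 below, with 0 called. TGFBR1 was at -0.03, -0.02 and 0.11 in Y641F, A677G and H689A/F667I, and ID2 at 0.03, -0.06 and 0.10. ACVR1C, by contrast, was at -0.73, -0.73 and 0.06. Of the ligands, BMP3 (log2 difference -1.63 ± 0.287, SE), GDF10 (-1.48 ± 0.291), GDF6 (-0.74 ± 0.167), INHBB (-0.71 ± 0.234) and BMP7 (-0.14 ± 0.0446) were lower, with edgeR adjusted p of 7.65e-05, 3.40e-04, 0.00168, 0.0403 and 0.0288. Of the antagonists, CHRD, which encodes chordin (-0.75 ± 0.204), BMPER, a chordin-like BMP binding protein (-0.46 ± 0.138), and FSTL1 (-0.12 ± 0.0375) were lower (edgeR adjusted p = 0.0105, 0.0207 and 0.0217). Of the receptors, ACVR1C (-0.79 ± 0.125) and TGFBR1 (-0.13 ± 0.0379) were lower (1.46e-05 and 0.0195 by edgeR, adjusted p). ID1 (-0.30 ± 0.0538) and ID2 (-0.11 ± 0.0344) were lower and ID4 (0.15 ± 0.0343) and LTBP1 (0.17 ± 0.042) higher, with edgeR adjusted p of 7.54e-05, 0.0232, 0.00158 and 0.00422.

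Among these 14, CHRD, FSTL1 and TGFBR1 had GOF and LOF samples that overlapped. CHRD measured 2.08, 3.95 and 2.98 CPM in H689A/F667I and 2.81, 1.68 and 1.47 CPM in Y641F, with 2.02, 1.2 and 1.62 CPM in A677G, and its call was lost without H689A/F667I replicate 2 (adjusted p = 0.238). INHBB measured 1.84, 1.94 and 2.67 CPM in H689A/F667I, 1.43, 1.52 and 1.56 CPM in Y641F and 1.26, 1.43 and 0.713 CPM in A677G. The INHBB call was lost with library totals and in 7 of the 12 fits without a sample, those without Y641F replicate 2 or 3, A677G replicate 1 or 3 or any H689A/F667I replicate (0.0501 to 0.265). BMPER measured 4.63, 3.92 and 5.18 CPM in H689A/F667I, 3.5, 3.36 and 2.62 CPM in Y641F and 3.32, 3.86 and 3.24 CPM in A677G. ACVR1C, BMP3, GDF6, GDF10, ID1, ID4 and LTBP1 kept their calls in this contrast whichever sample was left out. The BMP7 call was lost without Y641F replicate 3, A677G replicate 3 or H689A/F667I replicate 1 or 2 (0.056 to 0.228), and the BMPER call without Y641F replicate 3 or H689A/F667I replicate 1 or 3 (0.055 to 0.169). FSTL1 lost its call without Y641F replicate 2, A677G replicate 3 or H689A/F667I replicate 1 or 2 (0.0613 to 0.162). TGFBR1 lost it without A677G replicate 3 or H689A/F667I replicate 1 or 2 (0.0506 to 0.188), and ID2 without A677G replicate 2 or H689A/F667I replicate 1 (0.0705 and 0.28). BMP7, FSTL1, TGFBR1 and ID2 have the smallest differences of the contrast. Loss of a call did not follow size alone, since the larger differences of CHRD, INHBB and BMPER lost theirs too. The small differences of ID4 and LTBP1 kept their calls. The count of 12 lower members went to 7 without H689A/F667I replicate 1 or replicate 2.

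Levels between genes were compared as CPM per kb of exon, with exon lengths from GENCODE on GRCh38. The length joins the exons of all annotated transcripts of a gene, such as 36426 bases for SMAD2 and 1233 for ID1. The ranking of genes by CPM per kb thus depends in part on the annotation. By this level the ID genes were highest, with mean values over all samples of 72.1 for ID3, 52.0 for ID2, 34.5 for ID4 and 23.8 for ID1. They were followed by SMAD5 (21.0), BMP2 (15.4), TGFBR1 (14.4), FSTL1 (11.98), BAMBI (11.5) and ACVR2B (11.4). The members with the steepest falls were at the other end, with 0.153 for BMP3, 0.233 for GDF10, 0.468 for ACVR1C and 0.629 for GDF6. BMP2, the highest BMP ligand per length, did not differ between lines by the test, at 54.1 ± 1.19 CPM in WT, 55.5 ± 1.11 in Y641F, 53.4 ± 1.43 in A677G and 55.2 ± 1.8 in H689A/F667I (SD, n = 3). BMP2, ID3 and BAMBI are named here for their level and were chosen after their values were seen.

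**Figure D4:**
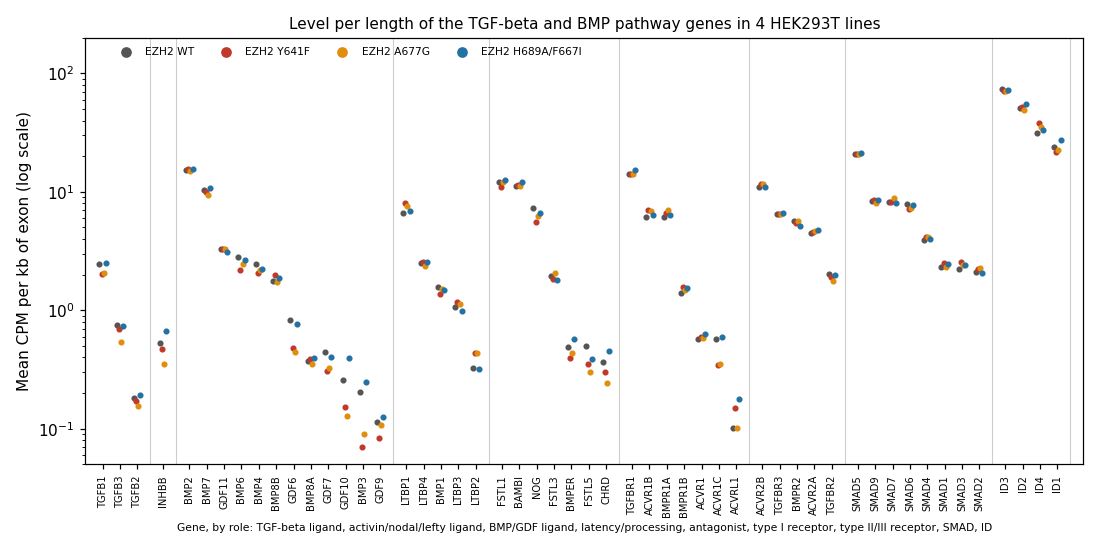
Mean CPM per kb of exon (y axis, log scale) of the 52 tested members (x axis, by role and by level within a role) in the 4 lines, each point the mean of 3 samples. The ID genes are the highest group, at 23.8 to 72.1 over all samples, and the 4 lines spread most for low-level genes such as BMP3, GDF10, GDF6 and ACVR1C. Low-level genes without a call spread too, such as ACVRL1 at 0.101 in WT and 0.179 in H689A/F667I, so spread alone does not mark a change.

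Other genes of the pathway outside the symbol rule were counted in 3 lists. Of 23 tested extracellular and membrane regulators, 4 were lower in each GOF line, 0 and 1 were higher in Y641F and A677G, and 0 were called in H689A/F667I. Over all genes, 5.59% and 6.48% were lower and 2.09% and 2.07% higher in Y641F and A677G. CHRDL1, a chordin-like BMP antagonist, measured 5.14, 6.68 and 5.31 CPM in WT, 2.95, 2.36 and 2.03 CPM in Y641F, 2.47, 2.26 and 2.3 CPM in A677G and 6.06, 5.4 and 6.42 CPM in H689A/F667I. Its log2 fold changes were -1.22 and -1.28 (edgeR adjusted p = 1.07e-06 and 4.67e-07). All its GOF samples were below all the others. TLL1, a protease of the BMP1 family that cleaves chordin, fell by 1.02 and 1.39 on the log2 scale (edgeR adjusted p = 0.00497 and 1.81e-04). FBN2, a fibrillin of the matrix that binds BMP and TGF-beta complexes, fell by 0.21 and 0.29 (edgeR adjusted p = 0.00134 and 1.67e-05).

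The list of intracellular regulators included TRAP1, whose symbol names a mitochondrial chaperone, and it was not called in any comparison. Of the 29 listed genes tested, 2 were lower and 1 higher in each GOF line, which is near the all-gene shares given above, and 0 were called in H689A/F667I. The genes named next are therefore values of single genes. Those lower in both were LDLRAD4 and PMEPA1, related membrane proteins that restrain receptor SMADs. LDLRAD4 measured 6.22, 6.81 and 7.3 CPM in WT, 4.21, 4.57 and 4.49 CPM in Y641F, 4.44, 5.33 and 4.52 CPM in A677G and 7.52, 7.08 and 7.91 CPM in H689A/F667I (log2 fold change -0.61 and -0.51, edgeR adjusted p = 0.0011 and 0.00653). PMEPA1 had log2 fold changes of -0.49 and -0.47 (edgeR adjusted p = 0.0176 and 0.0233). In H689A/F667I the PMEPA1 value was -0.22 (edgeR adjusted p = 0.704). Its GOF mean did not differ from H689A/F667I by the test (log2 difference -0.26, edgeR adjusted p = 0.177). HIPK2, a kinase that acts with SMAD corepressors, was the higher gene in Y641F (log2 fold change 0.20, adjusted p = 0.0154).

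Of 20 target genes tested, 4 were lower in each GOF line, 1 was higher in Y641F and 2 in A677G, beside the same all-gene shares of 5.59% and 6.48% lower and 2.09% and 2.07% higher. FN1, the matrix protein fibronectin, fell by 0.33 and 0.36 on the log2 scale (edgeR adjusted p = 0.0012 and 3.10e-04). MYC, a growth regulator that TGF-beta can repress, fell by 0.19 in A677G (edgeR adjusted p = 0.00691) and was at a log2 fold change of -0.01 in Y641F (adjusted p = 0.977). In H689A/F667I the MYC value was -0.16, close to that in A677G, with an edgeR adjusted p of 0.198. The GOF mean did not differ from H689A/F667I for MYC by the test (log2 difference 0.07, edgeR adjusted p = 0.364). CDKN1A, the cell cycle inhibitor p21, rose by 0.31 and 0.64 (edgeR adjusted p = 0.0142 and 7.06e-07). HEY1, a Notch and BMP target, was the 1 listed gene called in H689A/F667I. It measured 159, 167 and 164 CPM in WT against 183, 191 and 175 CPM there (log2 fold change 0.17, edgeR adjusted p = 0.0443), with no overlap. HEY1 and KDR are named for their calls and were chosen after their values were seen. The medians of the 3 lists in the GOF lines ran from -0.17 to 0.03 on the log2 scale. KDR, the 1 endothelial marker with a row, was also lower in the GOF lines (log2 fold change -1.41 and -1.24, edgeR adjusted p = 0.0276 and 0.0494), at 0.673 to 0.784 CPM in WT, 0.105 to 0.428 in Y641F and 0.165 to 0.404 in A677G. In H689A/F667I, KDR was at 0.496 to 0.611 CPM, also below WT (log2 fold change -0.39, edgeR adjusted p = 0.843). The GOF mean did not differ from H689A/F667I for KDR by the test (log2 difference -0.93, edgeR adjusted p = 0.09).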

How the data were processed

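Reads from TruSeq stranded mRNA libraries were, per the methods and the submitters' processing notes, trimmed with Trim Galore 0.6.5, aligned to GRCh38 with STAR 2.7.9a and quantified with Salmon 1.2.0 (GENCODE 23). The deposited table holds whole-number counts for each gene symbol, not normalized by the authors, for 12 samples of 4 lines. The step from Salmon to counts per symbol and the gene filter are not given in the sources used here, and how reads of similar genes were shared is unknown. The authors tested with edgeR 3.16 (exact test).

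Here 175 rows that read 0 throughout the A677G line or the H689A/F667I line were left out, and 14263 genes were tested in R 4.3.3 with edgeR 4.0.16 (TMM, quasi-likelihood F test, 1 coefficient per line, all 12 samples, common biological coefficient of variation 0.0471). P-values were adjusted by Benjamini-Hochberg over all genes, with a threshold of 0.05. The quasi-likelihood test replaced the exact test, which was an alternative. DESeq2 1.42.0, library totals, all rows, a minimum of 10 counts in every sample, only the lines compared, a replicate block, removal of GC trends and each sample left out were the others. The fit was tested on simulated data. The result of 1 member is not reported here. Total counts per sample were 32137700 to 44562413, and low-count members have wide errors. Symbols were matched to GENCODE 44 on GRCh38 (13161 by name, 805 through a RefSeq synonym, 472 unmatched), which gives positions and exon lengths, and promoters come from RefSeq. The members, gene lists and the left-out rows were chosen with earlier results of these data known. Named with values were members called in any of the 5 comparisons, the member with the highest mean CPM in each role group, core receptors and SMADs, ID1, and, from each other list, the 3 genes with the smallest adjusted p in either GOF line.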

Additional observations from a re-analysis of the deposited data

Results flagged for a closer look

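The GOF lines, as a mean, and the LOF line were called different for 14 members. A difference between these lines cannot be told apart from one between clones. The test was of the difference between the mean of the GOF lines and the LOF line (edgeR quasi-likelihood test, adjusted over all genes). Of the members tested, 23.1% were lower and 3.85% higher, where 8.75% and 3.81% of all genes were. The calls of BMPER, BMP7, CHRD, FSTL1, ID2, INHBB and TGFBR1 were each lost in some fits without a sample. The log2 differences, GOF mean minus LOF, were -1.63 for BMP3, -1.48 for GDF10, -0.79 for ACVR1C, -0.75 for CHRD, -0.74 for GDF6, -0.71 for INHBB, -0.46 for BMPER, -0.30 for ID1, -0.14 for BMP7, -0.13 for TGFBR1, -0.12 for FSTL1, -0.11 for ID2, 0.15 for ID4 and 0.17 for LTBP1. For BMPER, BMP7, CHRD, GDF10, ID1, ID2, INHBB and TGFBR1, neither GOF line passed the quasi-likelihood test against WT, although the exact test called GDF10 in A677G. EZH2 expression in the LOF line was between that of the GOF lines, and its part in these differences was not tested.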

How the results depend on the processing

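No call among the members changed direction under any alternative. With all rows kept, 1 member was called between Y641F and A677G. The replicate numbers did not pair the samples (correlations of deviations from -0.0557 to 0.0501 over 18 same-numbered pairs, 0 above 0.1). With the replicate block, 4 members were higher in the GOF mean than in H689A/F667I, against 2 without it, the added ones being BMPR2 and LTBP2, and ACVR1B lost its call in Y641F. Leaving out 1 sample at a time gave 3 to 7 lower and 2 to 3 higher members in Y641F, 2 to 4 lower and 2 to 3 higher in A677G, 0 in H689A/F667I, 0 to 1 between the GOF lines, and 7 to 13 lower and 2 to 4 higher in the GOF mean against H689A/F667I. The lowest counts came without WT replicate 1 or 2 (3 in Y641F, 2 in A677G), without A677G replicate 1 (2 in A677G) and without H689A/F667I replicate 1 or 2 (7), while Y641F gave 4 lower without its replicate 3, and 4 were higher in the GOF mean without Y641F replicate 2.

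With library totals FSTL1 lost both calls and INHBB its call, and EZH2 lost its call in A677G, as it did with GC trends removed. Over all genes, some counts moved by more than 1.5 times: in Y641F 298 genes were higher and 179 with only the lines compared, in A677G 295 and 497, and in H689A/F667I 23 lower and 20 higher became 45 and 30 with the exact test, 48 and 38 with only the lines compared, and 139 and 30 with all rows. Between the GOF lines 2 lower and 10 higher became 9 and 14 with the exact test and 15 and 163 with all rows, and 28 and 29 without Y641F replicate 2. Without 1 sample, the all-gene calls ran from 4 to 33 lower and 7 to 32 higher in H689A/F667I (lowest without H689A/F667I replicate 1 or WT replicate 1), from 1 to 28 lower and 6 to 29 higher between the GOF lines, and for genes called higher from 135 to 354 in Y641F and 142 to 410 in A677G, with 268 the lowest in the GOF mean against H689A/F667I, where 544 were called with all samples. The cause was not tested, except that the all-rows setting adds the rows at 0. Depth limits GDF9, GDF10, ACVRL1, TGFB2 and BMP3 most, which had at most 66 counts in any sample.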
